A study of Mus musculus with 12 samples.

Results

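The transcriptomes of Bcl-xL S14A knock-in (KI) and wild-type (WT) hearts were compared under the same acute load, 9 h after transverse aortic constriction (TAC). The 3 KI TAC hearts (mice 5, 6 and 7) and the 3 WT TAC hearts (mice 7, 9 and 10) were chosen by genotype and surgery alone, and they are 6 of the 12 hearts in the series. The other 6 hearts, 3 KI and 3 WT, had sham surgery and served as the background for the genotype difference without constriction. In KI mice serine 14 of Bcl-xL is replaced by alanine, a residue that cannot be phosphorylated. All mice were young adult males on a C57BL/6 background. The replacement is carried in the germ line, so every cell type of the heart has it, and KI animals came from an engineered line whereas WT animals were bought from a vendor. No treatment or allele other than the knock-in separated the groups by their labels.

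TAC narrows the aorta, so the left ventricle must eject against a raised pressure. Within hours the heart switches on early response transcription factors, stretch-responsive and fetal cardiomyocyte genes, and matrix genes of its fibroblasts. Bcl-xL, the product of Bcl2l1, is an anti-apoptotic member of the Bcl-2 family that sits on mitochondria and the endoplasmic reticulum, and the study asked whether its phosphorylation at serine 14 is needed for the early response of the heart to load. The comparison here asks which genes, functional classes and cell type programs differed between genotypes once the load was applied.

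Expression was deposited as RPKM (reads per kilobase of transcript, scaled to a common library size). Read numbers recovered from the step size of low values lay between 25715285 and 29608542 per heart in WT TAC and between 30298178 and 31676887 in KI TAC. Mitochondrially encoded transcripts took 9.76 to 10.3% of reads in WT TAC and 9.84 to 11.9% in KI TAC. Of 13552 genes, the 11240 with at least 1 RPKM in at least 3 hearts were tested with limma on log2(RPKM + 1), all 4 groups sharing one estimate of the spread. A gene is called here when its adjusted p was under 0.05. All differences below are KI TAC minus WT TAC on that log2 scale, which understates changes of genes near 1 RPKM. The hearts were numbered separately in the labels, which give no litter or pairing, so p-values set the difference against the spread between these hearts.

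The defining markers of heart muscle were high in every TAC library. The summed RPKM of 12 cardiomyocyte markers was 16251 to 25943 in WT TAC and 20036 to 27527 in KI TAC, with overlap between genotypes. None of 11 T and NK cell markers and none of 6 lung epithelial markers was among the genes tested, and 1 of 9 skeletal muscle markers was (Mybpc2).

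Bcl2l1 itself was higher in KI TAC hearts. Its level was 7.5, 17.2 and 6.59 RPKM in WT TAC mice 7, 9 and 10, and 35.8, 37.0 and 24.5 RPKM in KI TAC mice 5, 6 and 7. The 3 KI values all lay above the 3 WT values. The difference was 1.64 ± 0.40 (SE) with an adjusted p of 0.0231, or 3.12-fold, and it was 1.79 after median-ratio scaling (adjusted p = 0.0289). After sham surgery the level was 12.2 ± 4.52 RPKM (SD, n = 3) in WT and 13.9 ± 6.47 in KI. The knock-in changes a single codon, so reads from both alleles count toward the gene and its level does not check the genotype labels. The call was lost without WT TAC 7, WT TAC 10, KI TAC 5 or KI TAC 6, with an adjusted p of up to 0.104. In bulk hearts more RNA per cell and more cells of a type that expresses a gene cannot be told apart, here and for every gene below.

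Between the TAC groups 1242 genes were called, 328 higher (2.92% of genes tested) and 914 lower (8.13%) in KI. The median difference over all 11240 genes was -0.12, so the deposited scale placed KI TAC slightly below WT TAC as a whole. Median-ratio scaling, which sets that median to 0, gave 643 genes higher (5.72%) and 604 lower (5.37%), and the share of calls in the upward direction moved from 26.4 to 51.6%. On both scales 316 genes were called higher and 602 lower. Among called genes the median difference was 0.94 upward and -0.83 downward, and 136 genes rose by at least 1 and 274 fell by at least 1. In 301 of the 328 and in 867 of the 914 the 3 KI values did not overlap the 3 WT values, and over all genes tested, called or not, the 3 KI values lay above the 3 WT values in 10.1% and below them in 19.4%. The number of calls depended on single hearts. It fell to 49 higher and 113 lower without WT TAC 7 and to 61 and 125 without KI TAC 6, and it was 374 and 1448 without KI TAC 7, 362 and 1230 without WT TAC 9, 173 and 624 without WT TAC 10, 213 and 433 without KI TAC 5, and 212 and 619 without KI sham 3. With only the 2 TAC groups in the fit it was 75 and 141. Called on both scales and without each TAC heart in turn were 40 genes higher and 100 lower.

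**Figure D1:**
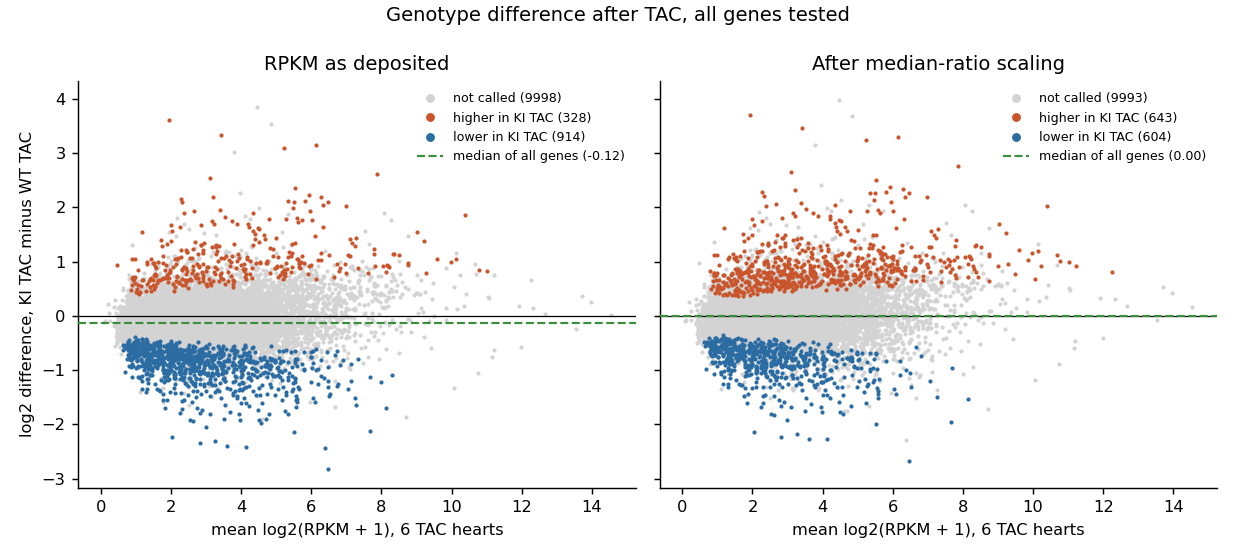
Each point is 1 of 11240 genes, plotted by its mean log2(RPKM + 1) over the 6 TAC hearts (x axis) and its log2 difference, KI TAC minus WT TAC (y axis), as deposited (left) and after median-ratio scaling (right). Orange points were called higher in KI TAC (328 and 643), blue points lower (914 and 604), and the dashed line is the median of all genes, at -0.12 on the left and 0 on the right.

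With predicted genes, Riken clones and pseudogenes passed over, the largest increases in KI TAC among called genes with no overlap between mice were Arc, Mt2, Atf3, Sphk1, Ankrd2, Rgcc, Fkbp5, Gadd45g, Depp1 and Abra, with differences from 3.34 down to 2.11. The largest decreases were Myh7, Sox4, Tnc, Fzd2, Cilp, Spp1, Dact3, Nppa, Phyhip and Fn1, from -2.83 to -1.97. All 20 remained called after median-ratio scaling. With only the 2 TAC groups in the fit 10 of the 20 were not called, namely Arc (adjusted p = 0.0881), Atf3 (adjusted p = 0.0938), Sphk1, Ankrd2, Fkbp5, Abra, Sox4, Tnc, Cilp and Nppa.

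Arc, an early response gene best known from neurons, was at 1.86, 5.28 and 1.14 RPKM in WT TAC and at 193, 26.1 and 6.57 in KI TAC mice 5, 6 and 7. The KI values spanned a wide range with mouse 5 far above the others, and the difference of 3.34 ± 0.79 (adjusted p = 0.0209) was not called without WT TAC 7, WT TAC 10 or KI TAC 6. Mt2, a metallothionein that binds zinc and copper, was at 16.9, 69.3 and 9.38 RPKM in WT TAC and at 246, 254 and 146 in KI TAC. Its difference of 3.16 ± 0.54 (adjusted p = 0.00638) held without each TAC heart. Atf3, a stress-induced transcription factor, reached 545, 82.1 and 27.9 RPKM in KI TAC against 11.5, 25.2 and 5.49 in WT TAC, a difference of 3.09 ± 0.76 (adjusted p = 0.0245) in which KI TAC 5 again stood highest, and it was not called without WT TAC 7, WT TAC 10 or KI TAC 6.

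Sphk1, which makes sphingosine-1-phosphate, was at 2.02, 6.01 and 1.13 RPKM in WT TAC and 48.5, 17.7 and 8.53 in KI TAC (2.54 ± 0.48, adjusted p = 0.00881). Ankrd2, a titin-binding stretch-responsive protein, was at 44.4, 25.8 and 5.89 in WT TAC and 76.1, 149 and 97.5 in KI TAC (2.36 ± 0.49, adjusted p = 0.0126), and it was close to 0 after sham in both genotypes (0.333 ± 0.209 and 0.478 ± 0.186 RPKM). Rgcc, a cell cycle regulator, was at 21, 48.8 and 19.1 in WT TAC and 156, 139 and 102 in KI TAC (2.23 ± 0.34, adjusted p = 0.00461). For Rgcc the sham levels, 67.9 ± 8.07 and 68.6 ± 28.6 RPKM, lay between the 2 TAC groups. Gadd45g, a growth arrest and DNA damage gene, was at 35.8, 52.3 and 24.1 in WT TAC and 263, 147 and 118 in KI TAC (2.19 ± 0.32, adjusted p = 0.00458). Depp1, a target of FoxO transcription factors, was at 21.6, 54.7 and 14.7 against 137, 117 and 99 (2.12 ± 0.38, adjusted p = 0.00727), and Abra, an actin-binding activator of serum response factor in striated muscle, was 2.11 ± 0.41 higher (adjusted p = 0.00944). The calls of Sphk1, Rgcc, Gadd45g and Depp1 held without each TAC heart, whereas Ankrd2 was not called without KI TAC 6 and Abra not without WT TAC 7 or KI TAC 6.

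Myh7, the slow beta myosin heavy chain of the fetal heart, showed the largest decrease. It was at 195, 176 and 380 RPKM in WT TAC and at 33.6, 47.0 and 21.1 in KI TAC, with no overlap (-2.83 ± 0.44, adjusted p = 0.00492, held without each TAC heart). After sham surgery it was 75.5 ± 60.2 RPKM in WT and 31.1 ± 3.98 in KI, a difference of -0.99 that was not called. Nppa, the atrial natriuretic peptide, was at 483, 207 and 758 RPKM in WT TAC and 57.8, 80.0 and 195 in KI TAC (-2.12 ± 0.53, adjusted p = 0.0251). Of the KI TAC hearts mouse 5 lay within the sham range of 24.7 to 65.3 RPKM and mice 6 and 7 above it, and the call was lost without WT TAC 7, WT TAC 10, KI TAC 5 or KI TAC 6.

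Matrix proteins were among the other large decreases. Tnc, tenascin C, was at 38.1, 11.4 and 44.9 RPKM in WT TAC and 7.04, 2.01 and 5.11 in KI TAC (-2.41 ± 0.45, adjusted p = 0.00832). Spp1, osteopontin, was at 6.73, 4.34 and 16.0 against 0.561, 0.824 and 1.37 (-2.23 ± 0.30, adjusted p = 0.00395), and Fn1, fibronectin, at 47.0, 28 and 73.7 against 12.7, 10.2 and 10.3 (-1.97 ± 0.32, adjusted p = 0.00549). These 3 calls held without each TAC heart, and in Fn1 the KI TAC values were near the sham means of 12 ± 1.45 and 13.7 ± 5.79 RPKM. Cilp, a cartilage matrix protein made by cardiac fibroblasts, was at 20.7, 5.04 and 72.3 in WT TAC and 2.56, 2.85 and 4.82 in KI TAC (-2.30 ± 0.63, adjusted p = 0.0340). Its call was lost without WT TAC 7, WT TAC 10, KI TAC 5 or KI TAC 6, and its lowest WT value lay just above the highest KI value.

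The remaining large decreases were signalling and transcription genes. Sox4, an HMG-box transcription factor of progenitor cells, was at 45.8, 56.3 and 23.6 RPKM in WT TAC and 16.7, 3.11 and 4.87 in KI TAC (-2.42 ± 0.52, adjusted p = 0.0149, not called without WT TAC 7 or KI TAC 6). Fzd2, a Wnt receptor, was at 16.6, 12.8 and 15.2 against 1.10, 1.66 and 4.44 (-2.34 ± 0.32, adjusted p = 0.00395), and Dact3, an inhibitor of Dishevelled, at 130, 71.1 and 91.4 against 35.1, 17.1 and 14.6 (-2.14 ± 0.35, adjusted p = 0.00550). Both were spread within KI TAC, and both calls held without each TAC heart. Phyhip, a protein that binds phytanoyl-CoA hydroxylase, was at 17.9, 10.1 and 19.0 against 2.25, 2.04 and 5.02 (-2.05 ± 0.26, adjusted p = 0.00382, held without each TAC heart).

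**Figure D2:**
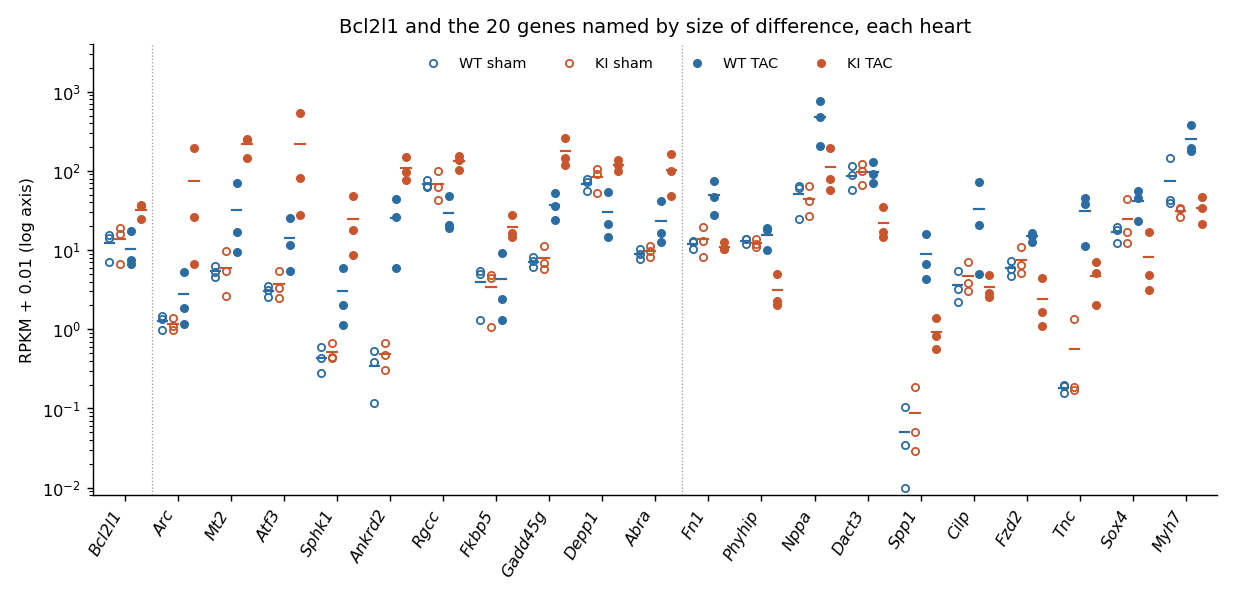
RPKM + 0.01 on a log axis for Bcl2l1 and the 20 genes with the largest differences under the naming rule, 1 point per heart and a bar at each group mean (open symbols sham, filled symbols TAC, blue WT, orange KI, n = 3 each). In all 21 genes the 3 KI TAC points lie on one side of the 3 WT TAC points, and Arc and Atf3 show the widest spread among KI TAC hearts (6.57 to 193 and 27.9 to 545 RPKM).

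The promoter windows of the 2 largest increases and decreases with an entry are shown because these genes lead the comparison. Each runs from 250 bases before to 50 bases after the RefSeq start (GRCm38.p6), 5′ to 3′ on the gene's strand, and Arc had no entry. Matches to short motifs, sought on both strands, are in capitals: a metal response element core (TGCACNC or TGCGCNC), a heat shock element (GAANNTTC), an AP-1 site (TGANTCA), a cAMP response element (TGACGTCA), an E-box (CACGTG) and a TATA box (TATAAA). The windows are those of Mt2 (chr8:94172368-94172667, plus strand) and Atf3 (chr1:191183284-191183583, minus strand), which were higher, and of Myh7 (chr14:54994577-54994876, minus strand) and Sox4 (chr13:28953650-28953949, minus strand), which were lower.
Mt2: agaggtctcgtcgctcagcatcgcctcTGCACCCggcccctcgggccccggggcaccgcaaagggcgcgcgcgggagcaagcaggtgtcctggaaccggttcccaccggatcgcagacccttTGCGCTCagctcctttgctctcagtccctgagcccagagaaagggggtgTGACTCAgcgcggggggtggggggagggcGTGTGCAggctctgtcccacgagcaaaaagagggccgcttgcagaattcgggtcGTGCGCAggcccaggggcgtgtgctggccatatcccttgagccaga
Atf3: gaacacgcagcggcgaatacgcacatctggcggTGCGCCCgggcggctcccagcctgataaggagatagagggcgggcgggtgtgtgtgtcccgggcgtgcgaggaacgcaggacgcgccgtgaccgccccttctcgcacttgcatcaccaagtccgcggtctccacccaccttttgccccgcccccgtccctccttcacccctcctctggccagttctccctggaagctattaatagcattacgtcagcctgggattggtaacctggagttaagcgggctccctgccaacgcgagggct
Myh7: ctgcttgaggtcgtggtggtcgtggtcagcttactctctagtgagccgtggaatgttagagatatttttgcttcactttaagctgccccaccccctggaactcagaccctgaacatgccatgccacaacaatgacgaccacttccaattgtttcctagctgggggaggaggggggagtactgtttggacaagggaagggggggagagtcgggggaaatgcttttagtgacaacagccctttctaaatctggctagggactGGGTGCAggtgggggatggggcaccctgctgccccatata
Sox4: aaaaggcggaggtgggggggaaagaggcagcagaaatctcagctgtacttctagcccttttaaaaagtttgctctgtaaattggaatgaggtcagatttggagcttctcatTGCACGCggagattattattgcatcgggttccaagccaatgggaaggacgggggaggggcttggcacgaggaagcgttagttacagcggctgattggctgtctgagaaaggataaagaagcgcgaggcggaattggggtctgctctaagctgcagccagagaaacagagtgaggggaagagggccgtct

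The Mt2 window held 4 metal response element cores and 1 AP-1 site, whereas Atf3, Myh7 and Sox4 each held 1 metal response element core and no other motif. A metal response element core is common at this length and stood in 37.3% of the 8691 promoters found for tested genes. It stood in 32.5% of 246 promoters of genes called higher and in 42.1% of 694 promoters of genes called lower. A TATA box was in 13.8% of the promoters of genes called higher, 5.62% of those called lower and 7.04% of all, and an AP-1 site in 7.72, 4.76 and 4.52%. The heat shock element was in 8.13, 4.32 and 5.45%. A match is a description of the letters only, and the promoters of called genes also differed in base composition, with a median GC content of 59.3% for genes called higher, 64.7% for genes called lower and 61.7% over all.

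Immediate early genes, which are transcribed within minutes of a stimulus without new protein synthesis, were called in the upward direction alone. Of 31 tested, 12 were called higher (38.7%, beside 2.92% of all genes) and 0 lower, and their median difference was 1.18 against -0.12 over all genes (1.32 with 10 calls after median-ratio scaling). Csrnp1, a nuclear protein induced by AXIN, was at 20.8, 36.5 and 10.1 RPKM in WT TAC and at 179, 44.2 and 44.9 in KI TAC (1.79 ± 0.47, adjusted p = 0.0303). Beside Arc, Atf3, Gadd45g and Csrnp1 the called members were Btg2 (1.77), Myc (1.5), Ier2 (1.43), Zfp36 (1.42), Maff (1.31), Dusp5 (1.31), Klf6 (1.26) and Egr2 (0.89). The best known members, Fos and Egr1, did not pass the test, although KI TAC 5 was high in both. Fos was at 5.75, 11.3 and 3.35 RPKM in WT TAC and 200, 22.8 and 7.38 in KI TAC (2.26 ± 0.81, adjusted p = 0.0832), with overlap between genotypes. Over the leave-one-out fits the number of calls ran from 3 without WT TAC 7 to 18 without KI TAC 7, and it was 4 without KI TAC 6, 5 without WT TAC 10 and 6 without KI TAC 5. By mouse, the mean deviation of the 31 genes from their 12-heart mean was 0.24, 0.59 and -0.53 in WT TAC and 2.11, 0.85 and 0.68 in KI TAC, and these scores overlapped after median-ratio scaling.

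Genes induced by glucocorticoids, the adrenal steroids released under stress, showed the largest median difference of all 29 functional lists. Of 21 tested, 11 were called higher (52.4%, beside 2.92% of all genes) and 0 lower, with a median of 1.36 (1.51 with 11 calls after median-ratio scaling). Fkbp5, a cochaperone of the glucocorticoid receptor, was at 1.31, 9.29 and 2.38 RPKM in WT TAC and 16.4, 27.5 and 14.7 in KI TAC (2.2 ± 0.54, adjusted p = 0.0239). Sgk1, a kinase induced by the receptor, was at 6.76, 11.3 and 10.1 against 29.4, 35.4 and 31.8 (1.7 ± 0.19, adjusted p = 0.00188), and its call held without each TAC heart. Pdk4, which blocks pyruvate entry into the mitochondrion, was at 65.8, 344 and 35.2 against 549, 1033 and 339 (2.62 ± 0.64, adjusted p = 0.0237), with WT TAC 9 reaching the KI range. Mt2, Mt1 (2.11), Cdkn1a (2.0), Ddit4 (1.94), Errfi1 (1.61), Per1 (1.41), Cebpd (1.36) and Tsc22d3 (0.93) completed the called members. The WT TAC hearts were not alike in this class. The mean deviation of the list was -0.77, 0.63 and -0.93 in WT TAC mice 7, 9 and 10 and 1.05, 1.09 and 0.91 in KI TAC, so WT TAC 9 stood nearer to the KI hearts. Without WT TAC 9 the calls numbered 15, and without WT TAC 7 or KI TAC 6 they numbered 2, with 4 each without WT TAC 10 or KI TAC 5. Pdk4 was also higher in KI than in WT after sham (139 ± 38.2 against 48.7 ± 19.1 RPKM, not called).

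Cytosolic heat shock proteins and cochaperones, which refold damaged proteins, had 6 of 27 tested members called higher and 0 lower (median 0.76, and 0.91 with 6 calls after median-ratio scaling). The share of 22.2% on both scales stood beside 2.92 and 5.72% of all genes. Hspb1, a small heat shock protein abundant in muscle, was at 990, 1058 and 330 RPKM in WT TAC and 4950, 2161 and 1565 in KI TAC (1.86 ± 0.46, adjusted p = 0.0236). Hspb8 was at 193, 210 and 264 against 762, 430 and 359 (1.15 ± 0.27, adjusted p = 0.0211), and Dnajb4 (1.00 ± 0.23), Fkbp4 (0.92 ± 0.23), Dnajb5 (0.71) and Ahsa1 (0.59) were the other calls. The inducible Hsp70 genes Hspa1a and Hspa1b, examined after their values were seen, differed above all between KI TAC hearts. Hspa1a was at 3.54, 17.1 and 1.33 RPKM in WT TAC and at 1356, 75.1 and 4.66 in KI TAC mice 5, 6 and 7 (3.86 ± 1.33, adjusted p = 0.0741), and Hspa1b, its near-identical neighbour with which it can share reads, followed the same order. The class score was 1.72 in KI TAC 5, 0.68 in KI TAC 6 and 0.08 in KI TAC 7, against -0.06, 0.05 and -0.17 in WT TAC, and the scores overlapped after median-ratio scaling. Calls fell to 0 without WT TAC 7, KI TAC 5 or KI TAC 6, numbered 3 without WT TAC 10 and rose to 14 without KI TAC 7.

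Oxidative stress genes and metallothioneins had 5 of 30 members called higher (16.7%) and 1 lower (3.33%), beside 2.92 and 8.13% of all genes (median 0.45, and 0.58 with 9 higher and 1 lower after median-ratio scaling). Mt1 was at 29.3, 87.7 and 28 RPKM in WT TAC and 179, 206 and 166 in KI TAC (2.11 ± 0.41, adjusted p = 0.00940). Hmox1, heme oxygenase, was at 8.37, 8.41 and 12.8 against 23.8, 21.8 and 18.7 (1.06 ± 0.20, adjusted p = 0.00869), and Srxn1, sulfiredoxin, at 19.9, 24.2 and 13.3 against 70.2, 26.5 and 48.5 (1.23 ± 0.29, adjusted p = 0.0206). In all 3 genes the genotypes did not overlap, with Srxn1 the closest to doing so. Prdx5 (0.97) was also higher and Sod3 (-0.96), the extracellular superoxide dismutase, was lower. Among the upward calls 1 remained without WT TAC 7 and 3 without KI TAC 5, KI TAC 6 or WT TAC 10.

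Genes of the ATF4 branch of the integrated stress response rose in part, with 5 of 23 called higher (21.7%) and 1 lower (4.35%), beside 2.92 and 8.13% of all genes (median 0.16, and 0.30 with 5 higher and 0 lower after median-ratio scaling). Ppp1r15a, which dephosphorylates the translation factor eIF2 alpha, was at 6.63, 10.8 and 4.98 RPKM in WT TAC and 35.1, 19.2 and 23.9 in KI TAC (1.69 ± 0.27, adjusted p = 0.00549, held without each TAC heart). Ddit4, an inhibitor of mTOR signalling, was at 17.1, 69.0 and 24.2 against 108, 113 and 143 (1.94 ± 0.43, adjusted p = 0.0169), and Atf4 itself at 28.5, 36.8 and 21 against 95.7, 46.9 and 51.7 (1.10 ± 0.26, adjusted p = 0.0208). With Atf3 and Nupr1 (0.59) these made up the upward calls, and Aldh18a1 (-0.78), an enzyme of proline synthesis, was lower. Upward calls numbered 1 without WT TAC 7 and 2 without KI TAC 6, and 3 without WT TAC 10 or KI TAC 5. Chaperones of the endoplasmic reticulum were called in the other direction. Of 22 tested, 0 were called higher and 4 lower (18.2%, beside 8.13% of all genes), 2 had a positive difference and the median was -0.44 (-0.29 with 3 calls after median-ratio scaling).

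Pdia4, a disulfide isomerase, was at 16.6, 6.98 and 15.6 RPKM in WT TAC and 4.47, 4.65 and 4.89 in KI TAC (-1.23 ± 0.26, adjusted p = 0.0138). Sdf2l1 (-1.17 ± 0.32), Manf (-0.96 ± 0.26) and Hyou1 (-0.91 ± 0.24), a chaperone complex component, a secreted stress factor and a large Hsp70-like chaperone, were the other 3 calls. For Pdia4 the KI TAC hearts also lay below all 6 sham hearts (6.35 to 10.0 RPKM), whereas for the other 3 genes they overlapped the sham range. None of these 4 calls remained without WT TAC 7 or KI TAC 6, 1 remained without KI TAC 5, and 7 members were called without WT TAC 9 or KI TAC 7.

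Of 70 nuclear genes of oxidative phosphorylation 26 were called higher in KI TAC (37.1%, beside 2.92% of all genes) and 0 lower. All 70 had a positive difference and the median was 0.75, but 0 were called without WT TAC 7 or without KI TAC 6. Median-ratio scaling gave a median of 0.90 with 57 calls (81.4%, beside 5.72% of all genes on that scale). Uqcr11, a small subunit of complex III, was at 82.1, 89.4 and 78.1 RPKM in WT TAC and 204, 257 and 213 in KI TAC (1.42 ± 0.32, adjusted p = 0.0187). Cox7a1, the muscle isoform of a complex IV subunit, was at 381, 421 and 313 against 859, 1153 and 899 (1.38 ± 0.32, adjusted p = 0.0208), Cox7c at 48.4, 54.3 and 50.3 against 98.3, 135 and 114 (1.16 ± 0.29, adjusted p = 0.0245) and Cox8b at 147, 174 and 127 against 304, 351 and 326 (1.14 ± 0.29, adjusted p = 0.0284). In 65 of the 70 the 3 KI values lay above the 3 WT values, as they did in 10.1% of all genes tested. The sham hearts varied more, for example 153 ± 69.2 RPKM in WT and 151 ± 60.2 in KI for Uqcr11, and no member was called after sham. The class score, the mean deviation of its genes from their 12-heart mean, was -0.52, -0.43 and -0.44 in WT TAC and 0.08, 0.52 and 0.30 in KI TAC. After sham the score was 0.449, -0.075 and -0.108 in WT and -0.298, 0.513 and 0.021 in KI. The whole class thus also differed widely between sham hearts of the same group.

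Most members of this class are short transcripts. Their median exon length was 1737 bases against 4282 over all genes, and 50 of the 70 lay in the shortest of 5 equal groups of genes by length, where 6.68% of genes were called higher, 4.1% lower and the median difference was 0.09. In the next group by length the median was -0.07. Where each heart was centred within groups of like exon length and GC content, an alternative added after the data had been seen, 53 of 70 were called higher with a median of 0.69, beside 6.01% of all genes called higher and 5.59% lower on that scale. The number of calls in the class depended on which heart was left out. None of the 26 remained without WT TAC 7 or without KI TAC 6, where the median was still 0.73 and 0.65, 6 were called without WT TAC 10, 12 without KI sham 3, 15 without KI TAC 7 or WT sham 3, 17 without WT TAC 9, KI TAC 5 or WT sham 2, and 40 without KI sham 2.

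Of the 12 mitochondrially encoded transcripts 1 was called higher (8.33%, beside 2.92% of all genes), mt-Atp6, and the median was 0.22 (0.38 with 2 calls after median-ratio scaling), beside a median of 0.23 after sham. This gene was at 7.31, 7.14 and 9.95 RPKM in WT TAC and 11.3, 18.7 and 29.6 in KI TAC (1.11 ± 0.30, adjusted p = 0.0350), and it was also higher in KI after sham (13.3 ± 2.53 against 7.13 ± 2.41, not called). The levels of mt-Atp6 were far below 4140 RPKM, the median over the list of each gene's mean in all hearts, and the reason was not tested. The mt-Atp6 call was lost without WT TAC 7, WT TAC 9, KI TAC 6, KI TAC 7 or KI sham 3.

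Of 32 genes of fatty acid uptake and oxidation 4 were called higher (12.5%, beside 2.92% of all genes) and 0 lower (median 0.48, and 0.64 with 10 calls after median-ratio scaling). Beside Pdk4, Fabp3, the fatty acid carrier of the cardiomyocyte, was at 658, 759 and 729 RPKM in WT TAC and 1147, 1393 and 1831 in KI TAC (1.00 ± 0.28, adjusted p = 0.0383). Ucp3, a mitochondrial carrier protein, was at 9.77, 19.8 and 7.55 against 16.7, 48.0 and 49.2 (1.5 ± 0.39, adjusted p = 0.0287), and Hadh, an enzyme of beta oxidation, at 52.2, 58.4 and 52.4 against 75.3, 107 and 84.6 (0.69 ± 0.20, adjusted p = 0.0434). Ucp3 overlapped between genotypes and was higher in KI after sham too (43.4 ± 13.6 against 20.6 ± 2.24 RPKM, not called). Of 28 genes of glucose uptake and glycolysis 2 were called higher (7.14%) and 0 lower, with a median of 0.22 (0.34 with 5 calls after median-ratio scaling). These were Eno3, muscle enolase, at 199, 227 and 211 against 341, 495 and 390 (0.93 ± 0.23, adjusted p = 0.0238), and Ldhb, the heart form of lactate dehydrogenase (0.93 ± 0.28, adjusted p = 0.0493). The class scores of both lists overlapped between the TAC groups on the deposited scale. Neither list had a call without WT TAC 7 or KI TAC 6, and 2 glucose genes were called lower without WT TAC 9, 1 without KI TAC 5 and 3 without KI TAC 7. The fatty acid list had none without WT TAC 10 and 2 without KI TAC 7, WT sham 2 or KI sham 3.

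Fetal and stretch-responsive cardiomyocyte genes did not move as a block. Of 16 tested, 2 were called higher (Ankrd2 and Nrap) and 2 lower (Nppa and Myh7), 12.5% each way beside 2.92 and 8.13% of all genes, and the median was 0.21 (0.37 with 3 higher and 2 lower after median-ratio scaling). Nrap, which anchors actin filaments at the intercalated disc, was at 342, 376 and 223 RPKM in WT TAC and 649, 631 and 538 in KI TAC (0.98 ± 0.24, adjusted p = 0.0232, not called without WT TAC 7, WT TAC 10, KI TAC 5 or KI TAC 6). The remaining members were not called on the deposited scale, and centring by exon length and GC content gave 4 higher and 2 lower. Nppb, the B-type natriuretic peptide, was at 1345, 1387 and 900 in WT TAC and 1353, 2261 and 1278 in KI TAC (0.41 ± 0.48, adjusted p = 0.597). Ankrd1, a stretch sensor, was at 961, 914 and 923 against 935, 994 and 739 (-0.08 ± 0.34, adjusted p = 0.896), and Acta1, skeletal alpha actin, at 1525, 411 and 947 against 318, 544 and 1007 (-0.59 ± 0.52, adjusted p = 0.464). For Nppb and Ankrd1 all 6 TAC hearts lay above all 6 sham hearts, which ran from 55.1 to 292 RPKM for Nppb. Upward calls in the list ran from 0 without KI TAC 6 to 4 without KI TAC 7, and 1 downward call was lost without WT TAC 7, WT TAC 10, KI TAC 5 or KI TAC 6.

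Sarcomere and Z-disc genes had 4 of 30 members called higher (13.3%, beside 2.92% of all genes) and 0 lower (median 0.30, and 0.46 with 7 calls after median-ratio scaling). Tcap, telethonin, was at 324, 301 and 289 RPKM in WT TAC and 671, 1081 and 966 in KI TAC (1.54 ± 0.42, adjusted p = 0.0342). Tnni3, cardiac troponin I, was at 307, 335 and 286 against 538, 662 and 592 (0.95 ± 0.27, adjusted p = 0.0384), and Myl2, the ventricular regulatory light chain, at 1385, 1374 and 1150 against 2181, 2662 and 2239 (0.86 ± 0.25, adjusted p = 0.0447). In these 3 the WT TAC hearts lay below all KI TAC hearts and below all 3 WT sham hearts, while Lmod2, leiomodin, overlapped (0.93 ± 0.27, adjusted p = 0.0433). Myh6, the adult alpha myosin heavy chain, was at 1392, 2497 and 1761 in WT TAC and 2274, 3784 and 3479 in KI TAC (0.76 ± 0.26, adjusted p = 0.0735, and 0.0398 after median-ratio scaling). Of the 4 sarcomere calls none remained without WT TAC 7 or KI TAC 6, 1 remained without WT TAC 9, WT TAC 10, KI TAC 5, KI TAC 7, WT sham 2 or KI sham 3, and 2 without WT sham 3. Without WT TAC 9 another member was called lower.

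The list labelled voltage-gated sodium and potassium channels also holds potassium channels that are not voltage-gated, such as Kcnj3, Kcnj5, Kcnk3 and Kcnn2. Its genes, which shape the cardiac action potential, were called in both directions, and no sodium channel (Scn) gene was among the calls. Of 25 tested, 2 were called higher (8%) and 9 lower (36%), beside 2.92 and 8.13% of all genes, with a median of -0.58 (-0.43 with 1 higher and 7 lower after median-ratio scaling). Kcnq1, a delayed rectifier, was at 34.5, 20.8 and 44.1 RPKM in WT TAC and 16.3, 9.14 and 10.0 in KI TAC (-1.39 ± 0.26, adjusted p = 0.00834). Kcnd3, a transient outward channel, was at 7.21, 4.99 and 3.97 against 1.5, 1.65 and 2.78 (-1.10 ± 0.24, adjusted p = 0.0168). Genotypes did not overlap in either gene, and for Kcnq1 the KI TAC hearts also lay below all 6 sham hearts (24.9 to 31.4 RPKM). Hcn4, the pacemaker channel, was at 15.7, 23.9 and 6.39 against 6.32, 2.99 and 3.92 (-1.47 ± 0.39, adjusted p = 0.0303, and 0.0662 after median-ratio scaling). Kcnn2 (-1.09), Kcnj3 (-1.0), Kcnj5 (-0.96), Kcnh2 (-0.91) and Kcnk3 (-0.73) were among the other decreases, and Kcna5 (1.02) and Kcne1 (0.85) were the 2 increases. In the sham hearts the class differed by a median of -0.01. The class score was -0.24, -0.38 and -0.09 in WT TAC and -0.64, -0.69 and -0.64 in KI TAC, without overlap. Of the 9 decreases 0 remained without KI TAC 6, 1 without WT TAC 7 and 5 without WT TAC 10 or KI TAC 5. Without KI TAC 7, 12 members were called lower, 8 of them among the 9, and centring by exon length and GC content gave 5 calls lower and a median of -0.35.

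Of 25 calcium cycling genes tested 1 was called higher (4%, near the 2.92% of all genes) and 4 lower (16%, beside 8.13%), with a median of -0.05 (0.10 with 3 higher and 3 lower after median-ratio scaling). Hrc, a calcium-binding protein of the sarcoplasmic reticulum, was at 88.5, 96.3 and 80.5 RPKM in WT TAC and 153, 204 and 164 in KI TAC (0.96 ± 0.22, adjusted p = 0.0188). The store-operated channel Orai1 was at 35.0, 31.7 and 22.4 against 15.7, 8.69 and 16.7 (-1.09 ± 0.25, adjusted p = 0.0190), and Slc8a1, the sodium-calcium exchanger, at 24.0, 28.3 and 47.3 against 12.4, 18 and 18.4 (-0.95 ± 0.24, adjusted p = 0.0269). Cacnb2, a calcium channel subunit (-1.05 ± 0.31, adjusted p = 0.0425), and Itpr1, an inositol trisphosphate receptor (-0.68), were also lower, whereas Atp2a2, the calcium pump of the sarcoplasmic reticulum, did not pass the test (0.32 ± 0.19, adjusted p = 0.271). None of the 5 calls remained without KI TAC 6, and 1 did without WT TAC 7.

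Among 24 genes of calcineurin and NFAT signalling, which couples calcium to hypertrophic transcription, 1 was called higher and 3 lower (4.17 and 12.5%, near the 2.92 and 8.13% of all genes), with a median of -0.11, close to that of all genes (0.03 with 1 higher and 2 lower after median-ratio scaling). Nfatc2 was at 10.7, 6.66 and 5.53 RPKM in WT TAC and 3.95, 2.41 and 2.85 in KI TAC (-1.06 ± 0.22, adjusted p = 0.0138). Nfatc1 (-0.69 ± 0.19) and Cabin1 (-0.65 ± 0.17) were lower, Nfatc1 was not called after median-ratio scaling (adjusted p = 0.0955), and Calm2, a calmodulin gene, was higher (0.80 ± 0.20, adjusted p = 0.0238). After centring by exon length and GC content none of the 3 decreases was called, with Nfatc2 at -0.70 (adjusted p = 0.0562), Nfatc1 at -0.33 (adjusted p = 0.163) and Cabin1 at -0.14 (adjusted p = 0.471). Rcan1, a calcineurin inhibitor, was at 141, 172 and 53.9 in WT TAC and 233, 230 and 141 in KI TAC, with overlap (0.84 ± 0.38, adjusted p = 0.154). This value is for the whole gene and does not separate its isoforms. The paper's qPCR measured a particular isoform, whose rise after TAC it reports as suppressed in KI hearts, so the 2 measures differ. None of the list was called without WT TAC 7 or KI TAC 6.

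Collagens and fibrillar matrix genes had the lowest median of the functional lists. Of 30 tested, 0 were called higher and 6 lower (20%, beside 8.13% of all genes), 27 had a negative difference, and the median was -0.82. Median-ratio scaling gave -0.68 with 4 calls (13.3%, beside 5.37%). The median exon length of the list was 6591 bases, and centring by exon length and GC content gave a median of -0.50 with 3 calls, no longer including Col5a1 (adjusted p = 0.0849) and Col15a1 (adjusted p = 0.0859). Beside Fn1, Col5a1, a fibril-initiating collagen chain, was at 58.3, 24.3 and 93.1 RPKM in WT TAC and 11.5, 9.63 and 23.8 in KI TAC (-1.81 ± 0.45, adjusted p = 0.0249). Col15a1, a basement membrane collagen, was at 60.8, 18.9 and 53.8 against 15.5, 9.42 and 9.69 (-1.73 ± 0.44, adjusted p = 0.0268), and Loxl1, a crosslinking enzyme, at 338, 226 and 259 against 81.3, 63.3 and 123 (-1.64 ± 0.35, adjusted p = 0.0146). WT TAC 9 was the lowest WT heart in each of these. Col8a1 (-1.24) and Col6a2 (-0.97) were the remaining calls. Col1a1, the main fibrillar collagen, was at 188, 67.4 and 461 against 47.3, 43.1 and 85.2 and did not pass the test (-1.67 ± 0.55, adjusted p = 0.0646). The class score was 0.67, 0.02 and 1.36 in WT TAC and -0.22, -0.31 and 0.01 in KI TAC, so WT TAC 9 lay beside the KI hearts. Without WT TAC 9 the number of calls was 17, and it was 1 without WT TAC 7 or KI TAC 6, 2 without WT TAC 10, 3 without KI TAC 5 and 4 without WT sham 2, WT sham 3 or KI sham 3.

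Matricellular proteins and TGF-beta targets had 2 of 29 members called higher (6.9%) and 8 lower (27.6%), beside 2.92 and 8.13% of all genes (median -0.40, and -0.25 with 2 higher and 7 lower after median-ratio scaling). The decreases were Tnc, Cilp, Spp1, Ltbp2 (-1.94 ± 0.46, adjusted p = 0.0209), Ccn4 (-1.69), Thbs4 (-1.44), Timp1 (-0.85) and Tgfbi (-0.73). Timp1, an inhibitor of metalloproteinases, was at 52.7, 33.1 and 39.7 RPKM in WT TAC and 23.3, 17.9 and 26.9 in KI TAC, while sham hearts ran from 0.333 to 1.47, and it was not called after median-ratio scaling (adjusted p = 0.0530). Thbs1 (1.73), a thrombospondin induced early, and Timp3 (1.33) were higher. Of the 8 decreases 4 were called without WT TAC 7, KI TAC 5 or KI TAC 6, and 5 without WT TAC 10. Centring by exon length and GC content gave 6 calls lower and a median of -0.20. Neither increase was called without any one of these 4 hearts.

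Integrins, laminins and focal adhesion genes had 1 of 33 called higher and 4 lower (median -0.25, and -0.10 with 1 higher and 3 lower after median-ratio scaling). These shares, 3.03 and 12.1%, were near those of all genes, 2.92 and 8.13%. Lama5, a laminin chain, was at 67.9, 67.2 and 69.4 RPKM in WT TAC and 38.8, 21.1 and 34.2 in KI TAC (-1.14 ± 0.23, adjusted p = 0.0115), with almost no spread among WT hearts. Itgav (-0.89 ± 0.22), Itgb4 (-0.73 ± 0.15) and Itgb5 (-0.67), all integrin chains, were lower, and Lims2, an adaptor at focal adhesions, was higher (0.86 ± 0.23). Exons of this list had a median length of 7691 bases, and after centring by length and GC content its median was 0.07 with 2 calls each way. The list had no call without WT TAC 7 or KI TAC 6.

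Wnt receptors and modulators had 1 of 25 called higher (4%) and 5 lower (20%), beside 2.92 and 8.13% of all genes (median -0.35, and -0.22 with 1 higher and 4 lower after median-ratio scaling). With Fzd2, Fzd7 was at 8.95, 6.77 and 6.57 RPKM in WT TAC and 3.49, 3.46 and 3.65 in KI TAC (-0.88 ± 0.15, adjusted p = 0.00626), and the ligand Wnt5b at 9.19, 5.09 and 4.62 against 1.13, 1.63 and 2.25 (-1.42 ± 0.29, adjusted p = 0.0126). The ligand Wnt11 went the other way, at 4.17, 4.69 and 3.38 in WT TAC and 12, 12 and 7.45 in KI TAC (1.16 ± 0.20, adjusted p = 0.00638). Fzd2, Fzd7 and Wnt11 were called without each TAC heart, and Wnt5b was not called without WT TAC 7 or KI TAC 6. Fzd9 (-0.79) and Ror2 (-0.61) completed the decreases, of which 2 were called without WT TAC 7 or KI TAC 6 and 9 members without WT TAC 9. Of 15 Notch genes 1 was called, Notch3, a receptor of mural cells, at 64.9, 60.6 and 55.0 against 31.8, 22.8 and 39.8 (-0.95 ± 0.20, adjusted p = 0.0130). This single call is 6.67% of the list, beside 8.13% of all genes. Notch3 was not called without WT TAC 7 or KI TAC 6, whereas 3 Notch genes were called lower without WT TAC 10 and 2 without KI TAC 5 or KI TAC 7, and the Notch median was -0.44 (-0.29 after median-ratio scaling and -0.15 after centring by length and GC content).

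Genes of Myc and ribosome biogenesis had 6 of 29 called higher (20.7%, beside 2.92% of all genes) and 0 lower (median 0.33, and 0.49 with 8 calls after median-ratio scaling). Myc was at 15.4, 23.0 and 7.43 RPKM in WT TAC and 86.8, 32.4 and 24.5 in KI TAC (1.5 ± 0.41, adjusted p = 0.0353), and Gar1, a small nucleolar ribonucleoprotein subunit, at 3.99, 3.9 and 2.75 against 8.15, 7.61 and 7.03 (0.93 ± 0.21, adjusted p = 0.0170). Gnl3 (0.62), Nop56 (0.60), Nolc1 (0.57) and Wdr43 (0.57) were the other calls. None was called without WT TAC 7 or KI TAC 6, 1 without WT TAC 10 or KI TAC 5, 2 without WT sham 3 or KI sham 3 and 3 without WT sham 2. Of 79 cytosolic ribosomal protein genes 0 were called (0 of 79 on the deposited scale, 5 higher or 6.33% after median-ratio scaling, near the 5.72% of all genes), although 69 had a positive difference and the median was 0.24. Rplp0, for instance, was at 263, 254 and 260 against 269, 278 and 325 (0.16 ± 0.21, adjusted p = 0.638), and its sign turned negative under quantile normalization. The 36 proteasome genes had 0 calls and a median of 0.30 (0.44 with 2 calls after median-ratio scaling), with the subunit Psmb5 at 56.0, 49.6 and 56.3 against 66.6, 76.5 and 87.2 (0.49 ± 0.24, adjusted p = 0.173).

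Among 28 chemokines, cytokines and adhesion genes 3 were called higher (10.7%, beside 2.92% of all genes) and 0 lower (median 0.19, and 0.28 with 2 calls after median-ratio scaling). Cxcl1, a neutrophil attractant, was at 1.89, 1.53 and 0.388 RPKM in WT TAC and 7.2, 3.86 and 2.67 in KI TAC (1.28 ± 0.28, adjusted p = 0.0153, not called without KI TAC 6). Nfkbia (0.88 ± 0.27, adjusted p = 0.0483) and Ptgs2 (0.75 ± 0.20, adjusted p = 0.0305) were the others, of which Nfkbia was not called after median-ratio scaling (adjusted p = 0.0506), and the list had 0 calls without KI TAC 6 and after centring by length and GC content, and 1 without WT TAC 10 or KI TAC 5. Of 29 interferon response and antigen presentation genes 0 were called on either scale, and the median was -0.09 (0.04 after median-ratio scaling). B2m, the light chain of class I molecules, was at 118, 59.2 and 134 in WT TAC and 98.7, 105 and 72.1 in KI TAC, a difference whose sign depended on the scale (-0.11 as deposited and 0.05 after median-ratio scaling).

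Of 21 circadian clock genes 2 were called higher (9.52%, beside 2.92% of all genes), Per1 (1.41 ± 0.33, adjusted p = 0.0209) and Nfil3 (1.56 ± 0.43, adjusted p = 0.0368), and the list median was -0.03 (0.11 after median-ratio scaling). Per1 was at 9.46, 31.0 and 10.8 RPKM in WT TAC and 41.2, 34.7 and 48.6 in KI TAC, with WT TAC 9 just under the KI range. Neither was called without WT TAC 7, WT TAC 10, KI TAC 5 or KI TAC 6. Among 18 cell cycle genes the single call (5.56%, beside 2.92% of all genes) was Cdkn1a, the inhibitor p21, at 17.6, 67.4 and 7.56 against 117, 86.6 and 65.7, with overlap (2.0 ± 0.56, adjusted p = 0.0372). Among 15 Bcl-2 family genes 1 was called each way (6.67%, beside 2.92% of all genes higher and 8.13% lower). Bcl2l1 was higher and Bcl2, its anti-apoptotic relative, lower at 2.18, 3.87 and 2.35 against 1.47, 1.22 and 1.30 (-0.68 ± 0.19, adjusted p = 0.0376, and 0.0846 after median-ratio scaling). The median of that family was -0.08 and that of the cell cycle genes -0.28, and neither list had a call without WT TAC 7, KI TAC 5 or KI TAC 6. Without WT TAC 9, 6 cell cycle genes were called lower.

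Among 29 muscle ubiquitin ligases and protein turnover genes 1 was called higher and 3 lower (median 0.06, and 0.21 with 3 higher and 2 lower after median-ratio scaling). The shares of 3.45 and 10.3% were near the 2.92 and 8.13% of all genes. Asb2, a substrate receptor that targets filamins, was at 205, 149 and 312 RPKM in WT TAC and 59.8, 68.8 and 136 in KI TAC (-1.35 ± 0.31, adjusted p = 0.0206), and Asb18 at 12, 8.16 and 13.3 against 3.92, 4.19 and 3.56 (-1.29 ± 0.24, adjusted p = 0.00834, held without each TAC heart). For Asb2 all 6 sham hearts, at 372 to 527 RPKM, were above all 6 TAC hearts. Ky, a protease-like protein of the Z-disc, was lower with overlap (-1.13 ± 0.34, adjusted p = 0.0489, and 0.0591 after median-ratio scaling), and the polyubiquitin gene Ubb was higher at 140, 166 and 127 against 678, 261 and 223 (1.24 ± 0.36, adjusted p = 0.0428). Without WT TAC 7, WT TAC 10 or KI TAC 5, 1 decrease was called, and the increase was not called without any of these or without KI TAC 6, WT sham 2, WT sham 3 or KI sham 3.

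**Figure D3:**
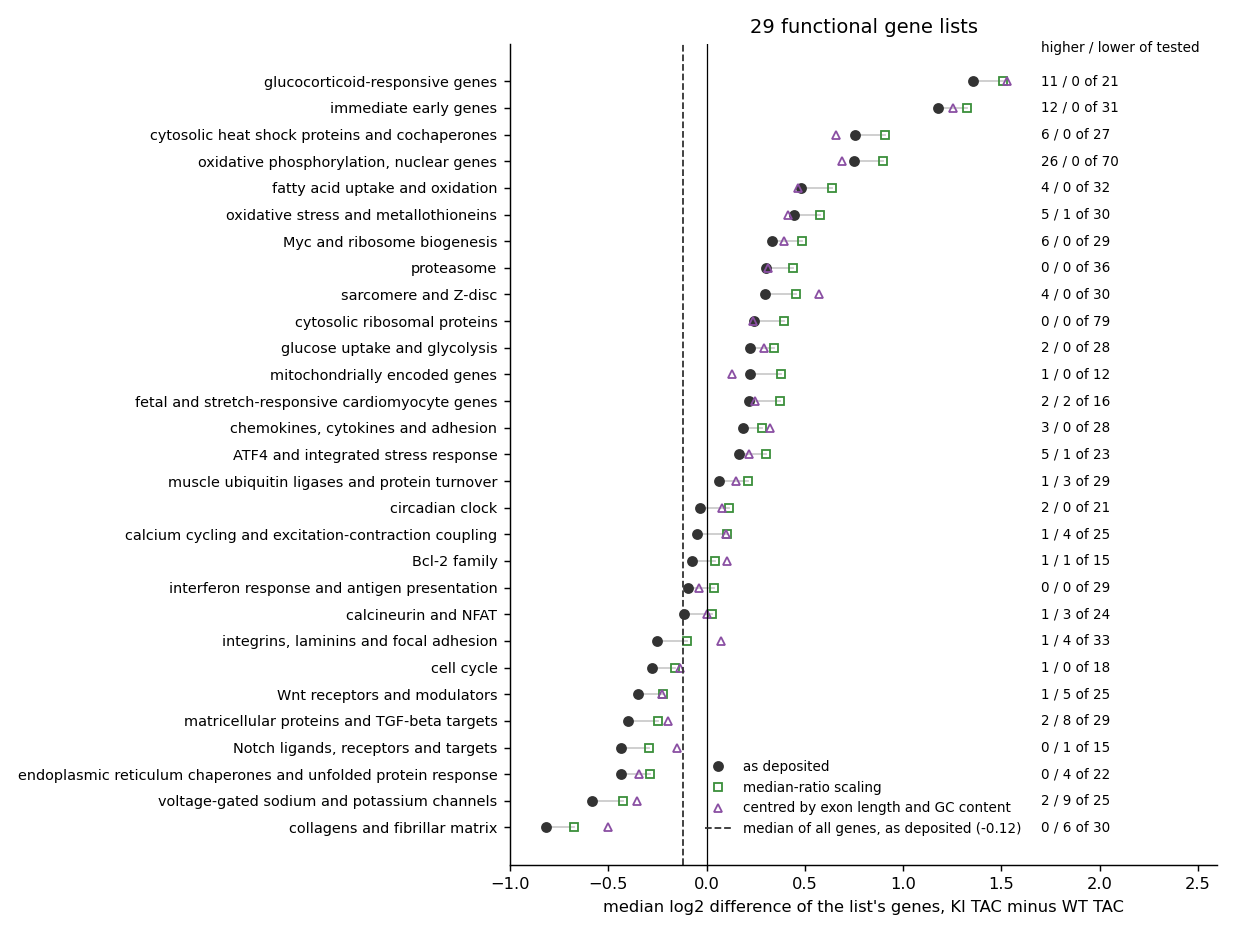
Median log2 difference (KI TAC minus WT TAC, x axis) of the tested genes of 29 functional lists (y axis), as deposited (filled circles), after median-ratio scaling (squares) and after centring by exon length and GC content (triangles), with the deposited counts of genes called higher and lower at the right. Glucocorticoid-responsive genes (1.36) and immediate early genes (1.18) stand at the top and collagens (-0.82) at the bottom, and the dashed line marks the median of all genes (-0.12).

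Marker genes of the heart's cell types were read in the same way. Cardiomyocyte markers had 3 of 12 called higher (25%, beside 2.92% of all genes), Tnni3, Myl2 and Mb, and a median of 0.71 (0.86 with 5 calls after median-ratio scaling). They did not all go one way: 8 of the 12 had a positive difference and the rest a negative one. In 5 the 3 KI values lay above the 3 WT values, and in 1 they lay below. Mb, myoglobin, was at 1679, 1740 and 1281 RPKM in WT TAC and 2491, 3038 and 2816 in KI TAC (0.84 ± 0.25, adjusted p = 0.0498), and none of these 3 calls remained without WT TAC 7, WT TAC 10, KI TAC 5, KI TAC 6, KI TAC 7, WT sham 2 or KI sham 3. Of the 2 atrial markers tested 1 was called lower (50%, beside 8.13% of all genes), namely Nppa. Of 4 conduction system markers Hcn4 and Gja5 (-0.50 ± 0.14, adjusted p = 0.0410) were called lower (50%, beside 8.13% of all genes), and neither was called without WT TAC 7 or KI TAC 6. After median-ratio scaling 1 was called lower, Gja5 (adjusted p = 0.0439). Centring by exon length and GC content gave 1 called higher and 0 lower. Hcn4 and Gja5 are also made outside the conduction system, and the summed RPKM of its 6 markers overlapped (13.3 to 34.0 in WT TAC and 10.1 to 14.3 in KI TAC).

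General fibroblast markers had 0 of 11 called on the deposited scale and a median of -0.17 (-0.02 with 1 higher, Gsn, after median-ratio scaling), and 1 was called higher and 4 lower without WT TAC 9. Their summed RPKM was 515 to 1011 in WT TAC and 520 to 735 in KI TAC, and Dcn, decorin, was at 36.8, 43.5 and 43.3 against 25.3, 37.1 and 51.0 (-0.17 ± 0.24, adjusted p = 0.666). Markers of activated fibroblasts had 3 of 7 called lower (42.9%, beside 8.13% of all genes), Tnc, Cilp and Ltbp2, and a median of -1.12 (-0.97 with 3 calls after median-ratio scaling). These 3 genes are shared with the matricellular list. The summed RPKM of the 8 activated fibroblast markers measured was 158, 80.3 and 348 in WT TAC and 67.2, 56.8 and 113 in KI TAC, which overlapped, WT TAC 9 being the lowest WT heart, and 1 call remained without WT TAC 7, WT TAC 10, KI TAC 5 or KI TAC 6 or after centring by exon length and GC content. General fibroblast markers overlapped in their sums beside the collagen and matricellular decreases, and the part of cell number in those decreases was not tested.

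Monocyte and macrophage markers had 4 of 11 called lower (36.4%, beside 8.13% of all genes) and 0 higher, with a median of -0.55 (-0.41 with 4 calls after median-ratio scaling). The list was not uniformly lower, since 4 of the 11 had a positive difference on each of these scales. Csf1r, the receptor for the macrophage growth factor, was at 16.8, 14.9 and 21.9 RPKM in WT TAC and 9.45, 8.32 and 8.95 in KI TAC (-0.91 ± 0.17, adjusted p = 0.00913). Adgre1, the F4/80 antigen, was at 5.70, 6.14 and 12.9 against 3.32, 2.72 and 2.78 (-1.15 ± 0.24, adjusted p = 0.0135), and Fcgr1, an immunoglobulin receptor, at 2.70, 1.43 and 2.94 against 0.561, 0.610 and 0.784 (-1.0 ± 0.18, adjusted p = 0.00706). Chil3, a product of recruited monocytes, was at 2.95, 5.01 and 1.67 against 0.607, 0.638 and 0.311 (-1.40 ± 0.21, adjusted p = 0.00461). Genotypes did not overlap in any of the 4, and 19.4% of all genes had the 3 KI values below the 3 WT values. The summed RPKM of 12 markers was 223 to 328 in WT TAC and 172 to 210 in KI TAC, without overlap on either scale, beside 127 to 192 in all sham hearts. All 4 calls held without WT TAC 7, and 2 held without KI TAC 6, where Adgre1 and Csf1r lost theirs. Spp1, named above, is also made by macrophages.

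Neutrophil markers were not called in either direction (0 of 4, of which 2 had a positive difference), with S100a9 at 2.83, 4.40 and 1.54 RPKM in WT TAC and 12.3, 6.59 and 2.55 in KI TAC (0.92 ± 0.36, adjusted p = 0.109) and a difference of -0.35 in Csf3r, the receptor of the granulocyte growth factor (adjusted p = 0.252). Their direction depended on single hearts, with 2 called lower without KI TAC 5 and 2 called higher without KI TAC 7. Blood endothelial markers had 2 of 13 called higher (15.4%, beside 2.92% of all genes) and 0 lower (median 0.10, and 0.25 with 2 calls after median-ratio scaling), and 2 were called lower without KI TAC 7. Their summed RPKM was 362 to 492 in WT TAC and 527 to 532 in KI TAC, and these sums overlapped after median-ratio scaling. Fabp4, the fatty acid carrier of capillary endothelium, was at 18, 31.5 and 26.3 in WT TAC and 62.5, 121 and 91.7 in KI TAC (1.80 ± 0.27, adjusted p = 0.00461, held without each TAC heart), and Esam, a junction protein, at 24.6, 31.2 and 21.8 against 45.2, 46.2 and 40.8 (0.76 ± 0.19, adjusted p = 0.0255, not called without WT TAC 7, WT TAC 10, KI TAC 5 or KI TAC 6). Fabp4 is also an adipocyte gene, and of 9 adipocyte markers 1 was tested, Cidea, at overlapping levels (10.3, 11.7 and 17.9 against 8.70, 16.9 and 22.7). Pericyte markers had 2 of 8 called lower (25%, beside 8.13% of all genes), Notch3 and Cspg4 (-0.80 ± 0.24, adjusted p = 0.0479, and 0.0781 after median-ratio scaling), and their summed RPKM was 298 to 306 in WT TAC and 222 to 255 in KI TAC, without overlap. Smooth muscle markers had 1 of 6 called lower (16.7%, beside 8.13% of all genes), Cnn1, calponin (-0.98 ± 0.25, adjusted p = 0.0261), with overlapping sums (112 to 213 and 97.4 to 136). The medians of the pericyte and smooth muscle lists were -0.16 and -0.18, near the -0.12 of all genes. After median-ratio scaling they were -0.02 and -0.07. Of 4 lymphatic markers 1 was called lower (25%, beside 8.13% of all genes), with a list median of -0.43 (-0.30 after median-ratio scaling). This was Prox1 (-1.27 ± 0.31, adjusted p = 0.0249), which is expressed in cardiomyocytes as well. Without WT TAC 7 or KI TAC 6 none of the pericyte, smooth muscle and lymphatic calls remained.

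Mast cell, B cell, mesothelial, Schwann cell and erythroid markers gave 0 calls among 1, 1, 1, 3 and 5 tested on the deposited scale, and 2 of the 5 erythroid markers were called higher after median-ratio scaling and also without KI TAC 5. Erythroid transcripts were uneven in KI TAC, with summed values of 97.8, 124 and 258 RPKM against 82.8, 114 and 74.9 in WT TAC, and Hbb-bs, not called with all hearts on the deposited scale (0.89, adjusted p = 0.0851), was called after median-ratio scaling (1.04, adjusted p = 0.0425) and without KI TAC 5 (1.2, adjusted p = 0.0448). The near-identical Hba-a1 and Hba-a2 can share reads and were not called.

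**Figure D4:**
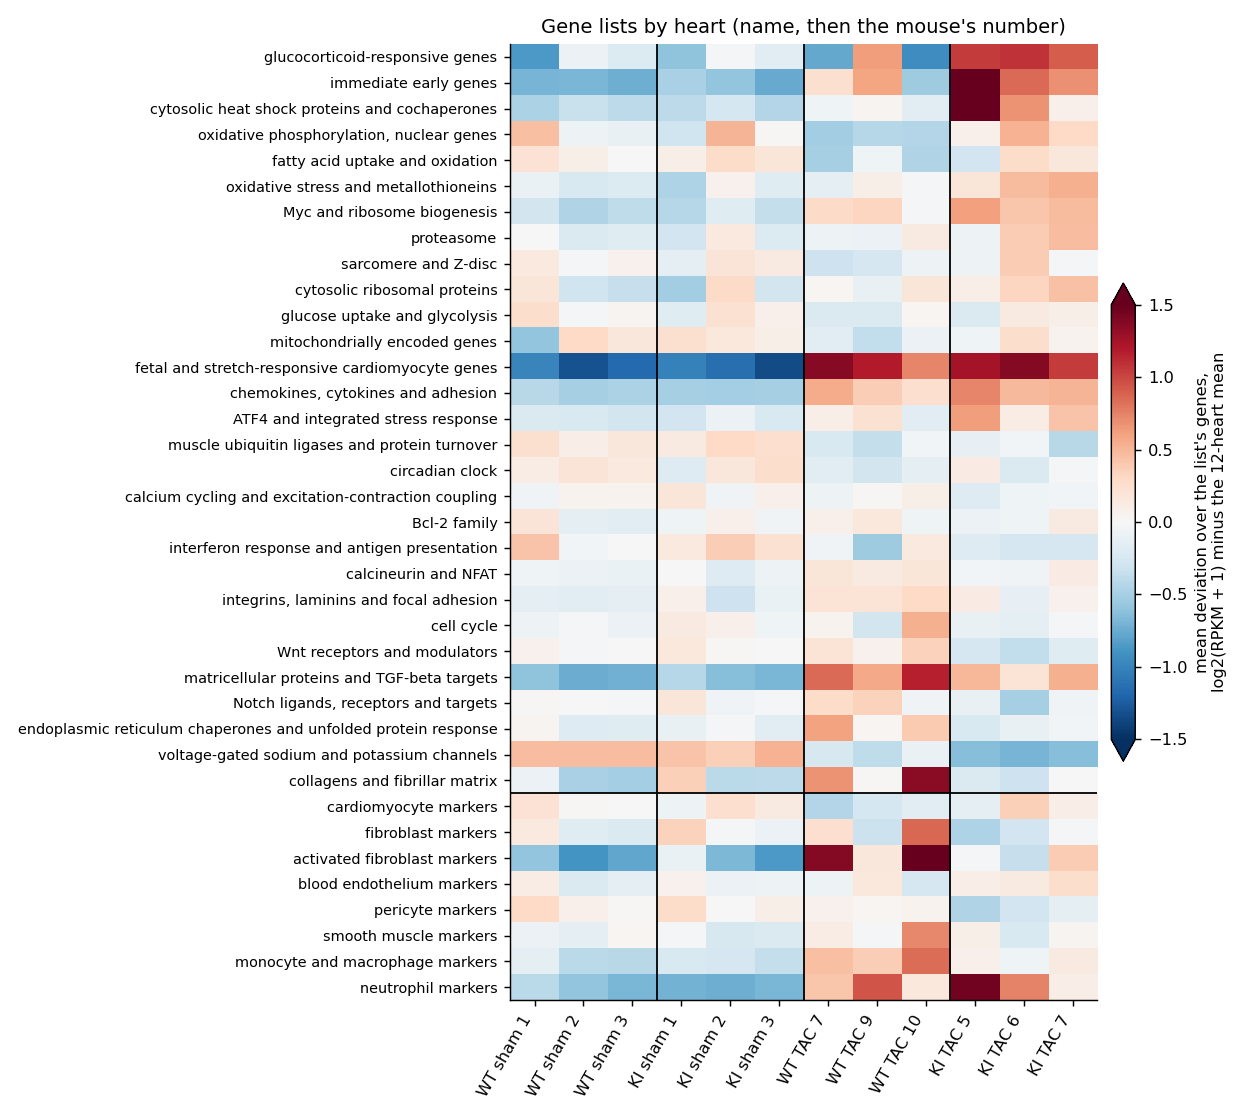
Mean deviation of each gene list in each of the 12 hearts, log2(RPKM + 1) minus the 12-heart mean averaged over the list's genes (colour, red above and blue below, clipped at the ends of the scale), for 29 functional lists and 8 cell type lists. KI TAC 5 reaches 2.11 for immediate early genes and 1.72 for heat shock proteins, and WT TAC 9 is above WT TAC 7 and 10 for glucocorticoid-responsive genes (0.63 against -0.77 and -0.93) and below them for collagens (0.02 against 0.67 and 1.36).

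Called genes shared features that the comparison did not use. Genes called higher had a median exon length of 2550 bases and genes called lower one of 5205, against 4282 over all genes. With genes in 5 equal groups by exon length, 6.68% of the shortest were called higher and 4.1% lower, and 0.934% of the longest were called higher and 10.4% lower. GC content separated the downward calls, with 2.85% of genes called lower in the group poorest in GC and 15.7% in the richest, while upward calls stayed between 2.18 and 3.61%. Median differences across length groups ran from 0.09 to -0.24 in TAC, and in sham no length group differed by more than 0.01. Across GC groups they ran from -0.08 in the poorest to -0.26 in the richest in TAC, and in sham from 0.06 in the poorest to -0.02 in the fourth. Centring each heart within groups of like length and GC content left 675 genes called higher and 628 lower, and 267 and 418 were called in the same direction on all 3 scales. Of the 102 named genes that were called, 79 were called after this centring. The 23 not called were Atf3, Cilp, Cacnb2, Hcn4, Nfatc2, Nfatc1, Cabin1, Myc, Hyou1, Nfil3, Col5a1, Col15a1, Ltbp2, Itgb4, Cxcl1, Nfkbia, Ptgs2, Cdkn1a, Bcl2, Ubb, Ky, Gja5 and Cspg4, with adjusted p from 0.0506 for Cilp to 0.471 for Cabin1. The part of length and GC content in the differences was not tested further.

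**Figure D5:**
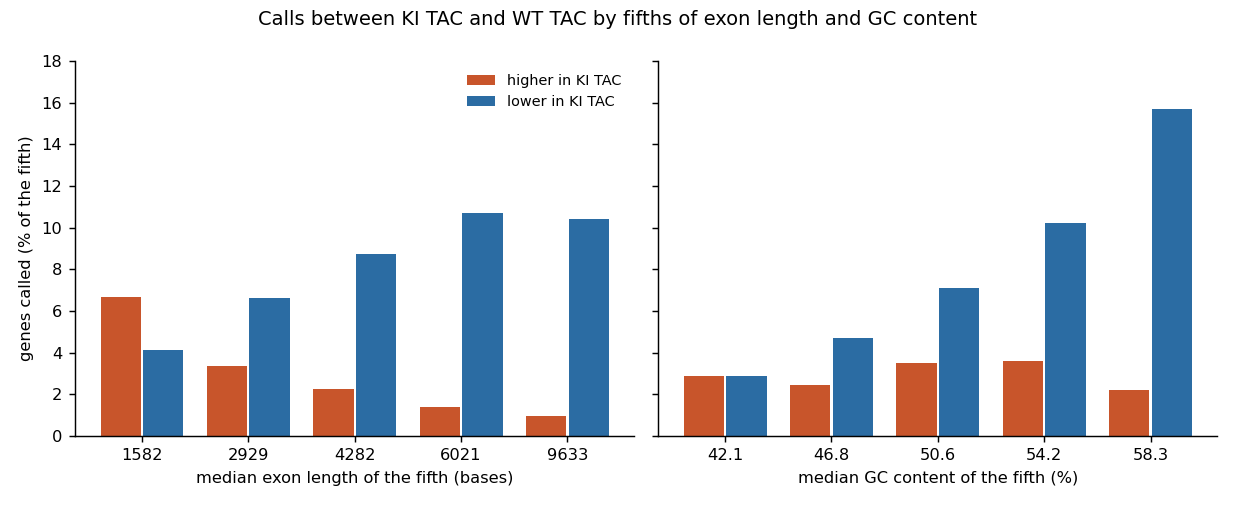
Percentage of tested genes called higher (orange) and lower (blue) in KI TAC within 5 equal groups by exon length (left, median length in bases on the x axis) and by GC content (right, median percent on the x axis), 2246 to 2248 genes per bar. Upward calls fall from 6.68 to 0.934% with length, and downward calls rise from 2.85 to 15.7% with GC content.

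Few genes were called between genotypes after sham surgery. Between KI sham and WT sham 2 genes were called (0.0178% of genes tested), both with predicted-gene symbols and both higher in KI, and 37 had an unadjusted p under 0.05. Gm6334 was at 0 to 0.179 RPKM in WT sham and 6.28 to 12.1 in KI sham, and it was also higher in KI TAC (8.83, 22.2 and 9.60 against 0, 0 and 0.336). Gm14267 was at 0.375 to 0.571 in WT sham and 3.22 to 3.93 in KI sham, and at 0.395, 0.225 and 0.279 in WT TAC against 1.53, 1.91 and 1.61 in KI TAC. These 2 genes separated all 6 KI hearts from all 6 WT hearts and were passed over by the naming rule. The genes called higher between the TAC groups had a median sham difference of 0.03, and those called lower one of less than 0.01 in size. Counts of sham calls were 4 without KI TAC 6, 5 with only the 2 sham groups in the fit, and 0 with the replicate number as a block, where 82 genes had an unadjusted p under 0.05 by limma.

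Whether the genotype difference under load differed from that after sham was tested as an interaction. With all 12 hearts limma called 0 genes, and 1668 had an unadjusted p under 0.05. Among the named genes the lowest adjusted p was 0.0988, shared by Fzd2, Spp1, Phyhip, Rgcc, Dact3, Chil3, Fn1 and Gadd45g, and the interactions of the first 3 of these were -2.60 ± 0.45, -2.28 ± 0.43 and -1.96 ± 0.37. For Bcl2l1 the interaction was 1.51 ± 0.56 (adjusted p = 0.248). The count was 240 without WT TAC 9, 182 without KI TAC 7 and 8 without WT TAC 10. With all hearts in the fit no single gene was shown to differ more under load than after sham.

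Of the 125 named genes 102 were called, and of these 102 were called with limma-voom on recovered reads, 95 after median-ratio scaling, 81 with quantile normalization, 79 after centring by exon length and GC content and 32 with only the 2 TAC groups in the fit. Leaving out 1 heart left 90 called without WT TAC 9, 89 without KI TAC 7, 57 without KI TAC 5, 54 without WT TAC 10, 25 without WT TAC 7 and 22 without KI TAC 6. Called without each TAC heart in turn were 19, of which 8 were higher: Mt2, Sphk1, Rgcc, Gadd45g, Depp1, Ppp1r15a, Wnt11 and Fabp4. The 11 lower were Myh7, Tnc, Fzd2, Spp1, Dact3, Phyhip, Fn1, Fzd7, Asb18, Chil3 and Fcgr1.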

How the data were processed

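Whole-heart RNA from 12 mice, 3 each of WT sham, KI sham, WT TAC and KI TAC, was poly(A) selected and sequenced. Per the submitters' processing notes and the study's methods, the authors trimmed reads with Trimmomatic 0.39, aligned them to GRCm38 with HISAT2 2.2.1, counted them with HTSeq 0.6.1 and tested them under R 4.1.1 (limma 3.32.10, edgeR 3.18.1). The deposited values are RPKM made by the authors from those counts, for 13552 genes in one table. RPKM keeps the effect of a changed RNA composition, because each library is divided by its own total.

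Groups were taken from the labels. Genes with at least 1 RPKM in at least 3 mice (11240) were tested on log2(RPKM + 1) with limma 3.58.1 (R 4.3.3) with 4 group means in one fit, an intensity trend in the variance and Benjamini-Hochberg adjustment over all genes tested. The steps were tested on simulated data. With 3 against 3 an exact permutation test of a single gene cannot go below p = 0.1, so only the model across all genes was used. Steps in the low RPKM values were worth whole reads: in each library 95.6 to 96.9% of the low values checked, of up to 20 reads, lay within 0.02 of a whole number, and limma-voom on the recovered reads called 318 genes higher and 1011 lower. Recovered totals give the depth, and intervals of counting error were not computed.

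Alternatives were median-ratio, quantile and mitochondria-free scaling, a pseudocount of 0.1, no filter, limma-voom, a fit of the 2 groups compared, a replicate block for sham, and leaving out each mouse. Centring within 25 cells of exon length and GC content (13546 genes had an annotation) and median-ratio scaling with a mouse left out were chosen after seeing the data. The 29 functional and 20 cell type lists, the members named and the tests were chosen with earlier results of these data known, and so support nothing on their own. Named genes were Bcl2l1, the 10 largest increases and decreases among called genes without overlap (predicted genes, Riken clones and pseudogenes passed over), and up to 4 called members of each list by size of difference, or where none was called the 2 (cell types: 3) members with the highest mean. Hspa1a, Hspa1b, Fos, Egr1, Nppb, Ankrd1, Acta1, Rcan1, Myh6, Atp2a2, Timp1, Sgk1, Gm6334 and Gm14267, and called members beyond 4 in a list, were added after their values were seen. Some genes that the rule names are not reported here. Promoters are from RefSeq.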

Additional observations from a re-analysis of the deposited data

How the results depend on the processing

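Between the TAC groups, 328 genes were called higher and 914 lower. Median-ratio scaling gave 643 and 604, quantile normalization 523 and 613, centring by exon length and GC content (chosen after seeing the data) 675 and 628, and a fit of only the 2 groups compared 75 and 141. Leaving out 1 of the 12 hearts gave 49 (without WT TAC 7) to 374 (without KI TAC 7) higher and 113 (without WT TAC 7) to 1448 (without KI TAC 7) lower. Median-ratio scaling with a TAC heart left out, also chosen after seeing the data, gave 48 higher and 55 lower without WT TAC 7. The counts were 56 and 57 without KI TAC 6, 374 and 428 without KI TAC 5, and 274 and 494 without WT TAC 10. They were 734 and 702 without WT TAC 9, and 777 and 696 without KI TAC 7. The cause of these shifts was not tested, beyond the fewer hearts in each fit.

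In sham the 2 calls became 5 with only the 2 groups compared and ranged from 2 to 4 (without KI TAC 6) over the leave-one-out fits. With the replicate number as a replicate block limma called 0 genes in sham, with 82 at an unadjusted p under 0.05. The TAC groups share only the number 7, so no paired analysis was possible there. The interaction count of 0 ranged from 0 to 240 (without WT TAC 9) over the leave-one-out fits, with 8 without WT TAC 10 and 182 without KI TAC 7.

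Sign changes were seen among named genes that were not called. These were Rplp0 (-0.13) and Kcna1 (0.019) under quantile normalization, B2m after median-ratio scaling (0.046), and Kit with a pseudocount of 0.1 (-0.055) and with limma-voom (-0.081). Over the leave-one-out fits B2m ran from -0.47 to 0.11, H2-D1 from -0.0077 to 0.23, Dcn from -0.41 to 0.081, Kit from -0.24 to 0.13, Wt1 from -0.045 to 0.52, Cidea from -0.083 to 0.56, Hba-a1 from -0.16 to 0.47 and Hba-a2 from -0.07 to 0.58. Genes near 1 RPKM are limited by depth, and hearts numbered 3 per group.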

Other observations

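Gene families outside the lists were read by symbol after the data had been seen, with no test of a family. Semaphorins, guidance proteins that signal between cells, had 4 of 14 tested members called lower in KI TAC (28.6%, beside 8.13% of all genes) and 0 higher. Median-ratio scaling gave 4 lower and 1 higher, and centring by exon length and GC content 1 lower and 2 higher. Sema4b was at 11.1, 7.59 and 10.4 RPKM in WT TAC and 3.56, 3.47 and 5.76 in KI TAC (-1.04 ± 0.19, adjusted p = 0.00822), with no overlap, and Sema3b, Sema6c and Sema4a were lower by -0.97, -0.73 and -0.49. Adamts proteases, which cleave matrix proteoglycans, were divided. Adamts1 was at 24.5, 109 and 21.6 against 296, 178 and 81.8, with WT TAC 9 within the KI range (2.04 ± 0.53, adjusted p = 0.0287), whereas Adamts8 was at 7.09, 3.38 and 6.04 against 0.923, 0.855 and 1.82 (-1.55 ± 0.21, adjusted p = 0.00395). Adamts7 (-0.95) and Adamts15 (-0.94) were lower on the deposited scale and not called after median-ratio scaling (adjusted p = 0.0534 and 0.0645).

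Of 15 Fbxl substrate receptors of ubiquitin ligases 4 were called lower (26.7%, beside 8.13% of all genes), and 1 after median-ratio scaling (6.67%, near the 5.37% of all genes on that scale). Among 190 zinc finger genes with a Zfp symbol 24 (12.6%) were called lower and 3 higher, beside 8.13 and 2.92% of all genes tested, and median-ratio scaling left 14 lower (7.37%) and 4 higher (2.11%), beside 5.37 and 5.72% of all genes. Mitochondrial ribosomal proteins of the large subunit (Mrpl) had 0 of 48 called by limma and 7 called higher after median-ratio scaling (14.6%, on a scale where upward calls over all genes grew from 2.92 to 5.72%), with a median of 0.24 as deposited.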
